A study of Mus musculus with 4 samples.

Results

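Megakaryocyte and platelet genes were followed in immature granulocytes, which are marrow precursors of neutrophils, from mice with and without the microRNA miR-223. The 8 members are Gp9, Gp1bb, Gp1ba and Gp5, which encode the subunits of the platelet receptor for von Willebrand factor, the collagen receptor gene Gp6, the granule receptor gene Treml1, and the chemokine genes Pf4 and Ppbp. Every array probe that is not a control spot and carries one of these 8 gene names was taken, which gave 1 probe per gene, 8 of the 41174 probes on the array. Cells were sorted from the marrow of male C57BL/6 mice that were miR-223 KO (2 arrays) or wild type (WT, 2 arrays), and Cy3-labelled cRNA of each sample was hybridised alone to an Agilent mouse array. The gate of the sort, the age of the mice and the way miR-223 was inactivated are not given in the sources used here. Whether the replicates are separate animals is not labelled. The p-values therefore cover only the spread seen between these samples, and that spread can be technical.

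Platelets are shed by megakaryocytes and have no nucleus, but they keep messenger RNA made by the megakaryocyte. Megakaryocytes fill alpha granules with adhesive proteins and chemokines and place glycoprotein receptors on the surface, which let platelets stick to the wall of an injured vessel. None of the 8 genes is a classical product of the granulocyte lineage, although miR-223 itself is abundant in both platelets and granulocytes.

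The 8 probes are shown because each is the only sequence through which its gene was measured. Each is 60 bases long and is written 5′ to 3′ in lower case, in the sense of the transcript.
Gp9: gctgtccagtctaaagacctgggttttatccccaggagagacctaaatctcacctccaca
Gp1bb: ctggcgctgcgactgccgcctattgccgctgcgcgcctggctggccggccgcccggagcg
Gp1ba: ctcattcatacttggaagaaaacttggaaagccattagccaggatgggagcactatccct
Gp5: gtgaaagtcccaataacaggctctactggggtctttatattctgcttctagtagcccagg
Gp6: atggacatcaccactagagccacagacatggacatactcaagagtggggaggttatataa
Treml1: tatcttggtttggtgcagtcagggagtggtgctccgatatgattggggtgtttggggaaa
Pf4: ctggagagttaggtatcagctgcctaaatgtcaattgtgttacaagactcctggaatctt
Ppbp: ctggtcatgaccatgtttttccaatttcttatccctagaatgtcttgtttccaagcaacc

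Per the file headers the probes lie on mm9, at chr6:87729650-87729709 (plus strand) for Gp9, chr16:18621107-18621166 (minus) for Gp1bb, chr11:70455415-70455474 (plus) for Gp1ba and chr16:30308347-30308406 (minus) for Gp5. The Gp6 probe lies at chr7:4320355-4320414 (minus), the Treml1 probe at chr17:48506365-48506424 (plus), the Pf4 probe at chr5:91202275-91202334 (plus) and the Ppbp probe at chr5:91198970-91199029 (plus). Pf4 and Ppbp are thus neighbours on chromosome 5. No gene models of mm9 were used here, so the exon or UTR that holds each probe is not given. The Gp1bb probe stood apart in composition, with 80% G and C bases, against 40% to 50% in the other 7. The microRNA that the KO mice lack is shown next, from RefSeq (GRCm38.p6, X chromosome), with its seed, bases 2 to 8, in capitals.
mmu-miR-223-3p: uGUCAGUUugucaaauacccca
The letters ACTGAC, which pair with bases 2 to 7 of that sequence, occur in 0 of the 8 probes, which says nothing about the rest of the transcripts.

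Promoter sequence from RefSeq (GRCm38.p6, 250 bases before each gene's start) was found for 8 of the 8 members. Windows of 4 are shown, the probe that separated the genotypes (Gp9), the ligand-binding receptor subunit (Gp1ba) and the chemokine neighbours (Pf4, Ppbp). Capitals mark the letters of a GATA motif (GATA with A or T before it and A or G after it) or of an ETS motif (GGAA with A or C before it and G after it) on either strand. The marked motifs do not overlap. Factors of these families are textbook regulators of megakaryocyte genes.
Gp9 chr6:87777820-87778069, plus strand: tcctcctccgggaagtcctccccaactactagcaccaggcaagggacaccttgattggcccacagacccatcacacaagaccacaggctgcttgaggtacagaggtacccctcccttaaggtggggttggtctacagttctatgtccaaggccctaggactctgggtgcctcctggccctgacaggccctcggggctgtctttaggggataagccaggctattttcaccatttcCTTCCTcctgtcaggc
Gp1ba chr11:70638872-70639121, plus strand: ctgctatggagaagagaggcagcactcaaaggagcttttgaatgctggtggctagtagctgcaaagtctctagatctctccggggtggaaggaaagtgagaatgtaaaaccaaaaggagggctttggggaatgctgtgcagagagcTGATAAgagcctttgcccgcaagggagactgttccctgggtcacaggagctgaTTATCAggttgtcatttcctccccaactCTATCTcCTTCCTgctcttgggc
Pf4 chr5:90772185-90772434, plus strand: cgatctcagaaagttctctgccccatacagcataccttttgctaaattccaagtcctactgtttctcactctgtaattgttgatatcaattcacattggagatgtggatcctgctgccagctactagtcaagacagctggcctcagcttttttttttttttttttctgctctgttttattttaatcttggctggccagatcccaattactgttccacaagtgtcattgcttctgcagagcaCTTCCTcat
Ppbp chr5:90768268-90768517, plus strand: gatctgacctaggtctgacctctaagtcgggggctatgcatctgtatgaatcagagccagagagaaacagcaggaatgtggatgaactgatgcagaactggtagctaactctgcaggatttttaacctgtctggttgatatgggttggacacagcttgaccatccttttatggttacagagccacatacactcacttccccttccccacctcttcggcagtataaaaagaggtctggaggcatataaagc
A GATA motif stood in 4 of the 8 windows (Gp1bb, Gp1ba, Gp5 and Gp6), against 26.5% of 32851 promoter windows of the same length. An ETS motif stood in 5 of the 8 (Gp9, Gp1bb, Gp1ba, Gp5 and Pf4), against 39.2% of all windows. The windows of Ppbp and Treml1 held neither. These are letter matches, not sites.

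All 4 arrays lay on 1 slide with the genotypes alternating. The share of spots well above background was 62.4% and 62.7% on the KO arrays and 59.6% and 62.9% on the WT arrays, and 0 spots were saturated. Below, a level is the processed signal, the scanner software's background-subtracted brightness of a spot. A log2 value is the log2 of that signal minus the log2 of the array's 75th percentile, which was 361 and 422 on the KO arrays and 314 and 310.4 on the WT arrays. Probes were kept for testing where 2 or more of the 4 arrays showed them well above background, which held for 25749 probes and for 4 members, Gp9, Gp1bb, Treml1 and Pf4. The other 4 are described by their signals and, where possible, by a bound. Differences are KO minus WT.

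Gp9 was the member that separated the genotypes, Treml1, Pf4 and Ppbp were highest on the array of KO replicate 2, Gp1bb was nearly level, and Gp1ba, Gp5 and Gp6 lay at or near background. By limma 0 of the 4 kept members passed an adjusted p of 0.05, and so did 0 of the 25749 kept probes (0%). The smallest adjusted p was 0.0874. Without adjustment, p was under 0.05 for 6342 probes (24.6%), with 11.1% of kept probes higher and 13.6% lower in KO. Of the 4 kept members 1, Gp9, was among those higher. With the prior variance of limma following intensity, called the intensity trend below, it called 9.63% of kept probes, 5.03% higher and 4.6% lower, and again 1 of the 4 members, Gp9. An exact test of 2 arrays against 2 cannot go below a two-sided p of 0.333.

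**Figure D1:**
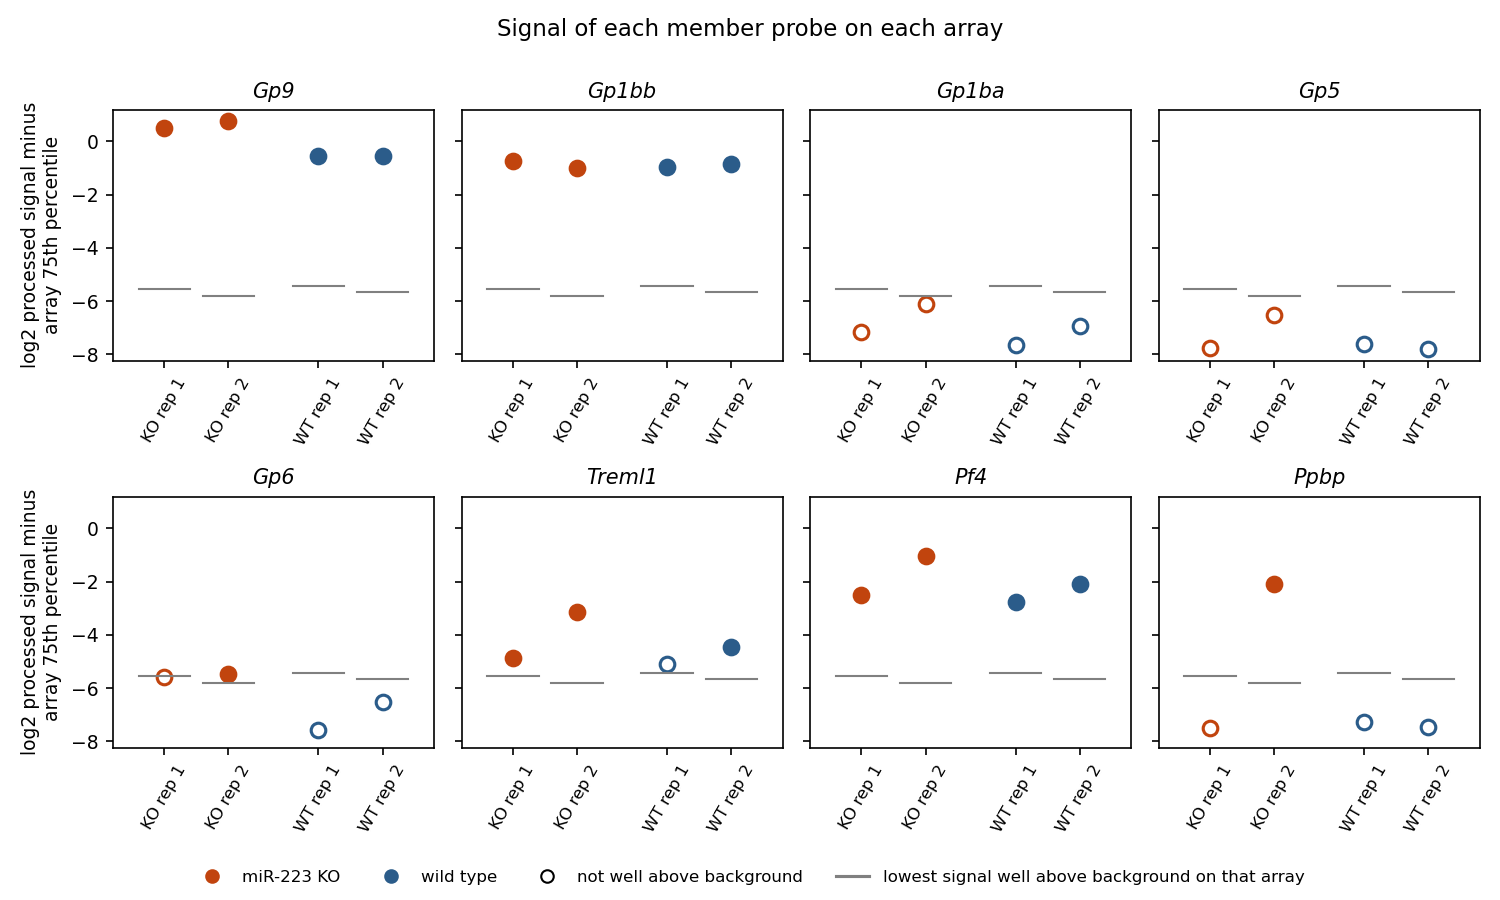
Log2 processed signal minus the array's 75th percentile (y axis) of the 8 member probes on the 2 KO and the 2 WT arrays, 1 point per array. Filled points are well above background, open points are not, and grey lines give the lowest signal well above background on that array. Gp9 stands higher on both KO arrays, and Ppbp is filled on KO replicate 2 alone.

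Gp9 encodes glycoprotein IX, the small subunit that the von Willebrand factor receptor needs to reach the cell surface. The processed signal was 517 and 708 on the KO arrays, against 213 and 210.4 on the WT arrays. The scanner software's own error was 51.7 and 70.8 in KO and 21.4 and 21.1 in WT. Both KO arrays were thus above both WT arrays. The WT replicates lay close together, and the KO replicates differed more. On the scaled log2 scale the KO values were 0.52 and 0.75, a mean of 0.63 ± 0.16, and both WT values were -0.56 (SD, n = 2 each). The difference of 1.19 ± 0.11 (SE) is 2.28-fold, with a 95% interval from 0.87 to 1.51, and limma gave an adjusted p of 0.0895. With the intensity trend the adjusted p was 0.00528. Without WT replicate 1 or WT replicate 2 it was 0.0667 or 0.0678, so the call with the trend is lost without either. Without KO replicate 1 or KO replicate 2 it was 0.00364 or 0.00508, where the spread comes from the near-identical WT pair and limma's prior, and the lone KO array is assumed to vary like them. Whether such a difference in sorted cells comes from more cells that express the gene or from more RNA per cell cannot be told apart.

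The difference between the KO replicates of Gp9, 0.23, was matched or exceeded in 31.3% of kept probes, and that between the WT replicates in 99.8%. The genotype difference was larger than either replicate difference. Both KO arrays above both WT arrays was a common pattern, found in 26.3% of kept probes, and Gp9 was the 1 of the 4 kept members that had it. Several marker lists also held members separated by genotype. Of 11 monocyte markers, all kept, 9 had both KO arrays above both WT arrays, with a median difference of 0.71. The summed signal of the 11 was 799 and 723 times the 75th percentile in KO, against 687 in each WT array. That sum is mostly Ly6c2 and Ly6c1, with differences of 0.04 and 0.39. Of 10 kept stem and progenitor markers, where Mecom was at background on every array and 3 genes are also in the associated lists described below, 5 were separated upward and 0 downward, with a median of 0.36 and summed signals of 83.6 and 88.1 in KO, against 69.3 and 71.5 in WT. Of 12 kept erythroid markers 9 were separated downward (32.8% of all kept probes were) and 1 upward, with a median of -0.59 and summed signals of 111 and 82.1 in KO, against 152 and 148 in WT. The erythroid factor gene Klf1 was not well above background on 3 of the 4 arrays. Mature neutrophil markers had 6 of 10 separated upward and 2 downward, with a median of 0.33, and immature granulocyte markers 7 of 13 upward and 2 downward, with a median of 0.11. Macrophage markers went both ways, with 2 of 11 separated upward and 4 downward and a median of -0.08. The part of any of these lists in the Gp9 difference was not tested.

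Gp1bb encodes the beta chain that is disulphide-linked to glycoprotein Ib alpha. It gave a processed signal of 215 and 213 on the KO arrays, against 159 and 172 on the WT arrays. The raw signals were higher in KO, but so was the 75th percentile of those arrays. After scaling, the log2 values were -0.75 and -0.99 in KO and -0.98 and -0.86 in WT, and the groups overlapped. The difference of 0.05 ± 0.13 (SE) had a 95% interval from -0.30 to 0.40, and limma's adjusted p was 0.83. With median scaling and in the authors' deposited table the KO values of Gp1bb were both above the WT values. Gp1bb was thus measured on every array but, unlike Gp9, its groups overlapped in the scaled values. Septin5, a cytoskeletal gene whose end overlaps Gp1bb in the RefSeq gene table, had signals of 14051 and 17047 in KO, against 14527 and 14795 in WT, with a difference of -0.24 ± 0.08 (SE) and a limma adjusted p of 0.193. Whether the Gp1bb probe also reads transcripts that continue from Septin5 was not tested, so the Gp1bb signal is uncertain in its source.

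Gp1ba encodes the chain that binds von Willebrand factor. Its probe was not well above background on any of the 4 arrays, with processed signals of 2.52 and 6.04 in KO, against 1.55 and 2.55 in WT. Gp5, whose product is cut by thrombin, was not well above background on any array either, with 1.68 and 4.58 in KO, against 1.63 and 1.39 in WT. Both probes were brightest on KO replicate 2, but below the lowest signal that counted as well above background there, 7.48. No fold change is given for Gp1ba and Gp5, since neither genotype was measured. Thus of the 4 genes of the receptor complex, Gp9 and Gp1bb were well above background on all 4 arrays, and Gp1ba and Gp5 were on 0. Levels of different probes cannot be compared, so this ranks no subunit against another.

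Gp6 encodes the collagen receptor, which signals through the Fc receptor gamma chain. Its processed signal was 7.61 and 9.63 on the KO arrays, against 1.65 and 3.42 on the WT arrays. Both KO values were above both WT values, but only KO replicate 2 was well above background. KO replicate 1 was below the lowest signal that counted as well above background there, 7.68. No fold change or bound is therefore given for Gp6. Over all 41174 probes, 19% had both KO arrays above both WT arrays, and among the 8 members Gp9 and Gp6 did, although for Gp6 values at background enter that order. The gamma chain gene Fcer1g, which granulocytes also use, had 82520 and 98778 in KO, against 64515 and 60557 in WT. Its difference of 0.21 ± 0.09 (SE) had a limma adjusted p of 0.238.

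Treml1 encodes an alpha-granule membrane receptor that moves to the surface of activated platelets. The probe gave 12.2 and 48.3 on the KO arrays, against 9.22 and 14.1 on the WT arrays. KO replicate 2 alone was high, and KO replicate 1 lay between the WT arrays, of which WT replicate 1 was not well above background. The genotype difference of 0.77 ± 0.67 (SE) had a 95% interval from -1.09 to 2.62, and limma's adjusted p was 0.518. The KO replicates differed by 1.76 on the log2 scale, 3.39-fold, more than the genotypes did. Only 0.419% of kept probes had KO replicates that differed as much. WT replicate 2 was 1.55-fold above WT replicate 1.

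Pf4 encodes platelet factor 4, the heparin-binding chemokine of alpha granules. Its processed signal was 63.6 and 206 on the KO arrays, against 46.7 and 73.2 on the WT arrays, all well above background. The order of the arrays was that of Treml1, with KO replicate 2 highest and KO replicate 1 between the WT arrays. The genotype difference of 0.65 ± 0.58 (SE) had a 95% interval from -0.96 to 2.25, and limma's adjusted p was 0.53. The KO replicates differed 2.77-fold (1.47 on the log2 scale), which 0.746% of kept probes matched or exceeded, and the WT replicates 1.59-fold. Without KO replicate 2 the difference turned to -0.09 for Pf4 and to -0.11 for Treml1. Without KO replicate 1 it was 1.38 for Pf4 and 1.65 for Treml1, and with the intensity trend Pf4 then had a limma adjusted p of 0.0322. That fit sets 1 KO array against the WT pair, which with limma's prior supplies all of the spread. For both genes the sign and the size of the genotype difference thus depended on 1 array.

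Ppbp encodes pro-platelet basic protein, the precursor of a chemokine that attracts neutrophils. Its processed signal was 2.02 and 98.2 on the KO arrays, against 2.02 and 1.78 on the WT arrays. Only KO replicate 2 was well above background, and the other 3 values are surrogates that the scanner software sets for spots at background. The spot on that array had 66 pixels with a mean of 111, a median of 109 and an SD of 22.3, a local background of 19 and 0 outlier flags. On KO replicate 1 the mean pixel signal was 23.2, and on the WT arrays it was 25.9 and 27.3. No fold change between the genotypes is given, not even as a bound, since the KO mean would include the surrogate of KO replicate 1. Between the KO replicates, KO replicate 2 was at least 10.9-fold above the lowest signal measurable on KO replicate 1. No exact difference between the KO replicates is given, since it would rest on that surrogate. Cxcl5 and Cxcl15, chemokine genes of the same cluster, were not well above background on any array.

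The excess of KO replicate 2, the log2 value there minus the highest of the other 3 arrays, was compared with that of all probes. This measure was chosen after the values were seen and is a description. For Ppbp it is a bound, with each of the other arrays set to no less than its lowest signal well above background. That bound, 3.32, was the largest, on the same footing, of the 25780 probes well above background on KO replicate 2, and among the 437 that were so on that array alone the next was 1.89. Among the 25749 kept probes Treml1 ranked 7 with an excess of 1.33, and Pf4 ranked 17 with 1.05. Gp9 ranked 708 and Gp1bb 14967. KO replicate 2 was the highest of the 4 arrays for Gp9, Treml1 and Pf4 among the 4 kept members, as for 19.3% of kept probes. The mean of the KO arrays was above that of the WT arrays for all 4 kept members, Gp1bb by 0.05 only, and for 45.3% of kept probes. Of the members, 4 and 6 were well above background on KO replicates 1 and 2, against 3 and 4 on WT replicates 1 and 2. Over all spots the shares were 62.4% and 62.7% in KO, against 59.6% and 62.9% in WT. Gp6 on KO replicate 2, at 9.63, was near the lowest signal that counted there, 7.48. Replicate 2 was above replicate 1 in both genotypes for Treml1 and Pf4 among the kept members, as it was for 26% of kept probes. In the same KO pair, mature neutrophil markers were higher on replicate 2 by a median of 0.24, and 5 of 10 were highest there. Their summed signal was 1882 and 1792.5 times the 75th percentile in KO, against 1978 and 2138 in WT. That sum is mostly S100a8 and S100a9, each with a genotype difference of -0.20, whereas 8 of the 10 markers were higher in KO. The median difference of KO replicate 2 minus replicate 1 was -0.75 for the 9 kept T and NK cell markers and -0.53 for the 8 kept B cell markers. Summed signals of the T and NK cell list were 1.32 and 0.848 in KO, against 1.68 and 1.52 in WT, and those of the B cell list 11.7 and 8.68 in KO, against 8.13 and 8.59 in WT. Their part in the excess was not tested.

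**Figure D2:**
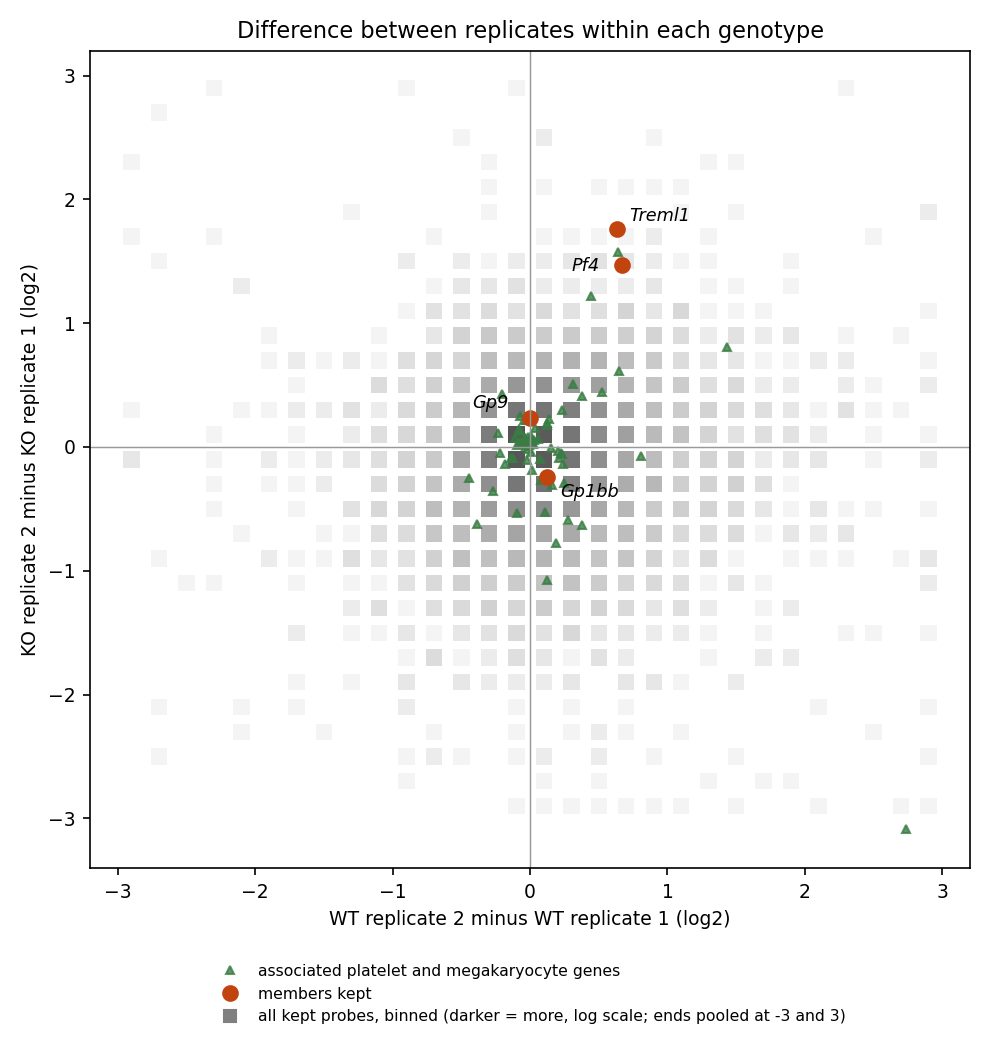
Log2 difference between replicate 2 and replicate 1 in KO (y axis) against the same difference in WT (x axis), for the 4 kept members (circles), the kept associated genes (triangles) and all kept probes (grey squares, darker with more probes). Gp9 and Gp1bb lie near the centre, and Treml1 and Pf4 stand at 1.76 and 1.47 on the y axis.

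Other genes of platelets and megakaryocytes were counted in 4 lists, which held 83 genes with a probe, 67 of them kept. Each gene counts by its brightest kept probe, whereas the shares over all kept probes take in dim probes too. The intensity trend treats bright and dim probes differently, so its shares are not of like sets. By limma 0 of the 67 passed, and 16 had an unadjusted p under 0.05, 12 higher and 4 lower in KO, against 24.6% of kept probes (11.1% higher, 13.6% lower). With the intensity trend 13 of the 67 (19.4%) were called, 9 higher and 4 lower, against 9.63% of kept probes. Without WT replicate 1 or WT replicate 2 the trend called 0 of them. Both KO arrays were above both WT arrays in 18 genes (26.9%) and below in 13 (19.4%), close to or under the shares over all kept probes given above, and the median difference was 0.01, against -0.03 over all kept probes. KO replicate 2 was the highest array for 23 of the 67 (34.3%), against 19.3% of kept probes. The lists thus held genes that were higher and genes that were lower, with a median near that of all probes.

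Among 14 kept surface receptor genes the intensity trend called 1 higher and 2 lower, with a median of -0.02. Selp, the granule adhesion receptor P-selectin, had signals of 49.9 and 56.3 in KO, against 83.5 and 71.0 in WT, and a difference of -0.86 ± 0.11 (SE; limma adjusted p = 0.0897, with the trend 0.0213). Clec1b, the podoplanin receptor, had 223 and 350 in KO, against 422 and 362 in WT, and a difference of -0.81 ± 0.19 (adjusted p = 0.121, with the trend 0.0302). Both were lower on both KO arrays, the opposite of Gp9. The brighter probe of Itgb3, the fibrinogen receptor's beta chain, had 5704 and 7767 in KO, against 3030 and 2950 in WT, and a difference of 0.83 ± 0.11 (adjusted p = 0.0897, with the trend 0.00765). Its other probe had a difference of -0.13, so the Itgb3 probes disagree. The cell adhesion gene Esam had a difference of 0.60 ± 0.11 (adjusted p = 0.105, with the trend 0.0989). Itga2b, the alpha chain that pairs with Itgb3, had 10.9 and 22.4 in KO, against 6.84 and 18.2 in WT, and was higher on replicate 2 of each genotype.

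Among 14 kept granule cargo genes the trend called 4 higher and 1 lower, with a median of 0.26. F13a1, the clotting factor XIII A chain and also a monocyte marker here, had 9605 and 11926 in KO, against 5244 and 5209 in WT, and a difference of 0.71 ± 0.09 (SE; limma adjusted p = 0.0897, with the trend 0.00584). Serpine2, a thrombin inhibitor, had a difference of 0.61 ± 0.12 (adjusted p = 0.104, with the trend 0.0285), and Fgl2, fibrinogen-like protein 2, one of 0.57 ± 0.09 (adjusted p = 0.0954, with the trend 0.0138). The matrix protein gene Thbs1 was lower on both KO arrays, with 42.3 and 65.8 in KO, against 77.3 and 99.4 in WT, and a difference of -1.06 ± 0.22 (adjusted p = 0.111, with the trend 0.0295). Vwf, the ligand of the Gp1ba product, had 27.5 and 49.2 in KO, against 17.2 and 26.6 in WT. It was highest on KO replicate 2, with rank 163 for the excess there, and its difference of 0.46 ± 0.33 had a limma adjusted p of 0.433.

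Of 21 kept genes of platelet shape, granule formation and signalling the trend called 2 higher and 0 lower, with a median of 0.01. These were the thromboxane synthase gene Tbxas1, with 1049 and 1268 in KO, against 599 and 563 in WT (difference 0.67 ± 0.09 SE, limma adjusted p = 0.0897), and the tubulin gene Tuba8 (0.48 ± 0.12, adjusted p = 0.134). Nbeal2, needed for alpha granules, had a difference of -0.30 ± 0.11 (adjusted p = 0.209). Cavin2, a caveola protein gene abundant in platelets, had 7.48 and 20.4 in KO, against 5.39 and 7.24 in WT. It ranked 16 for the excess on KO replicate 2, next to Pf4. Its probe was not well above background on KO replicate 1 and WT replicate 1, and was near the lowest such signal, 6.19, on WT replicate 2. Other genes of the 4 lists ranked low for that excess among 25749 kept probes, such as Clec1b (23348), Selp (24785) and Thbs1 (24880). Among 18 kept megakaryocyte transcription factor genes the trend called 2 higher and 1 lower, with a median of -0.02. Lmo2, a bridging partner of Tal1 and GATA factors, had 915 and 1093 in KO, against 458 and 459 in WT (0.80 ± 0.08, adjusted p = 0.0895, with the trend 0.00582). Tal1 had a difference of 0.55 ± 0.10 (adjusted p = 0.105, with the trend 0.0253), Fli1, an ETS factor, one of -0.28 ± 0.08 (adjusted p = 0.161, with the trend 0.0463), and Hhex one of 0.28 ± 0.10 (adjusted p = 0.188). Gata1, the GATA factor of megakaryocytes and red cells, was not well above background on any array, with 6.23 and 7.89 in KO, against 5.97 and 7.05 in WT.

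**Figure D3:**
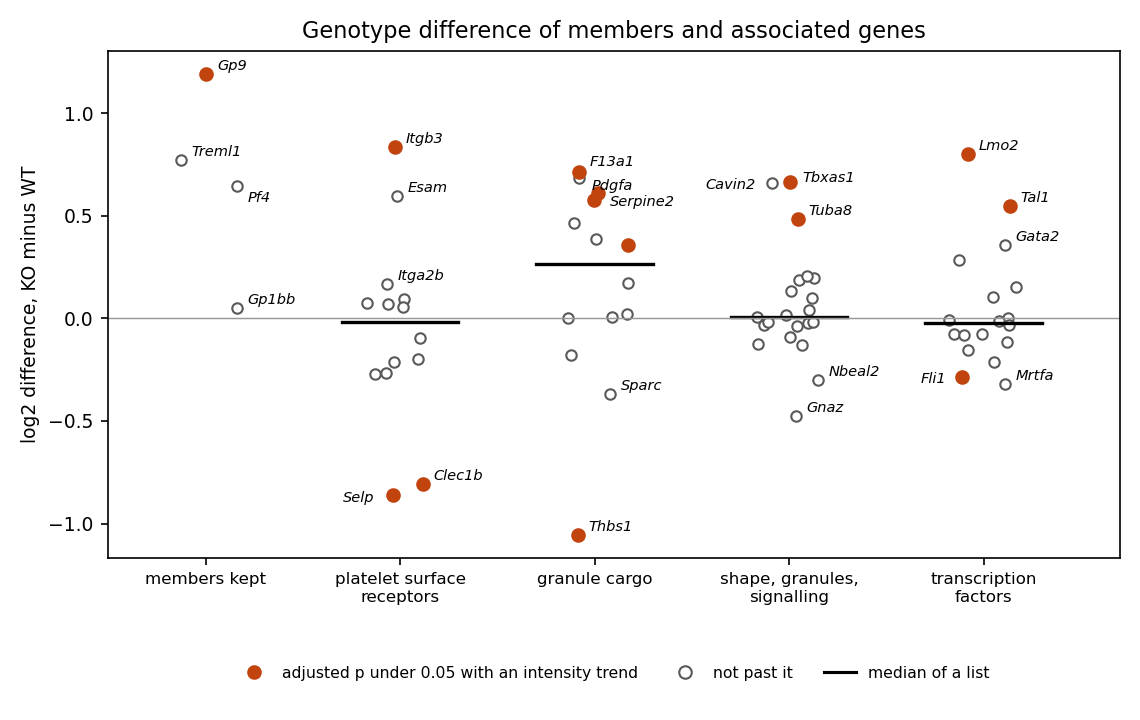
Log2 difference, KO minus WT (y axis), of the 4 kept members and of the kept genes of the 4 associated lists, 1 point per gene. Filled points have an adjusted p under 0.05 by limma with an intensity trend, and bars mark the median of each list. Points lie on both sides of 0 in every list, and the list medians run from -0.02 to 0.26.

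The kept members' mean profile over the 4 arrays, centred on 0, was -0.07 and 0.73 in KO and -0.51 and -0.15 in WT. It averages unlike members, with KO replicate 2 minus KO replicate 1 at 1.76 for Treml1, 1.47 for Pf4, 0.23 for Gp9 and -0.24 for Gp1bb. Among 23808 probes well above background on all 4 arrays, the 5 genes nearest to it by Euclidean distance were Xlr (0.157), H2-Q10 (0.171), Ccdc66 (0.184), Tmem205 (0.185) and Rhoc (0.198). The nearest, Xlr, had signals of 103 and 237 in KO, against 68.2 and 95.02 in WT. None of the 5 is in the associated lists. The 13 immature granulocyte markers with a probe were all kept. Their summed signals were 5252 and 4604 times the 75th percentile in KO, against 4834 and 5224 in WT. Being kept does not test the label of the cells, since all 11 monocyte and all 11 macrophage markers were kept too. Of the markers of basophils and mast cells 6 of 10 were kept, with a median difference of -0.08. For endothelial cells, whose list shares Vwf, it was 6 of 8, with a median of 0.15.

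**Figure D4:**
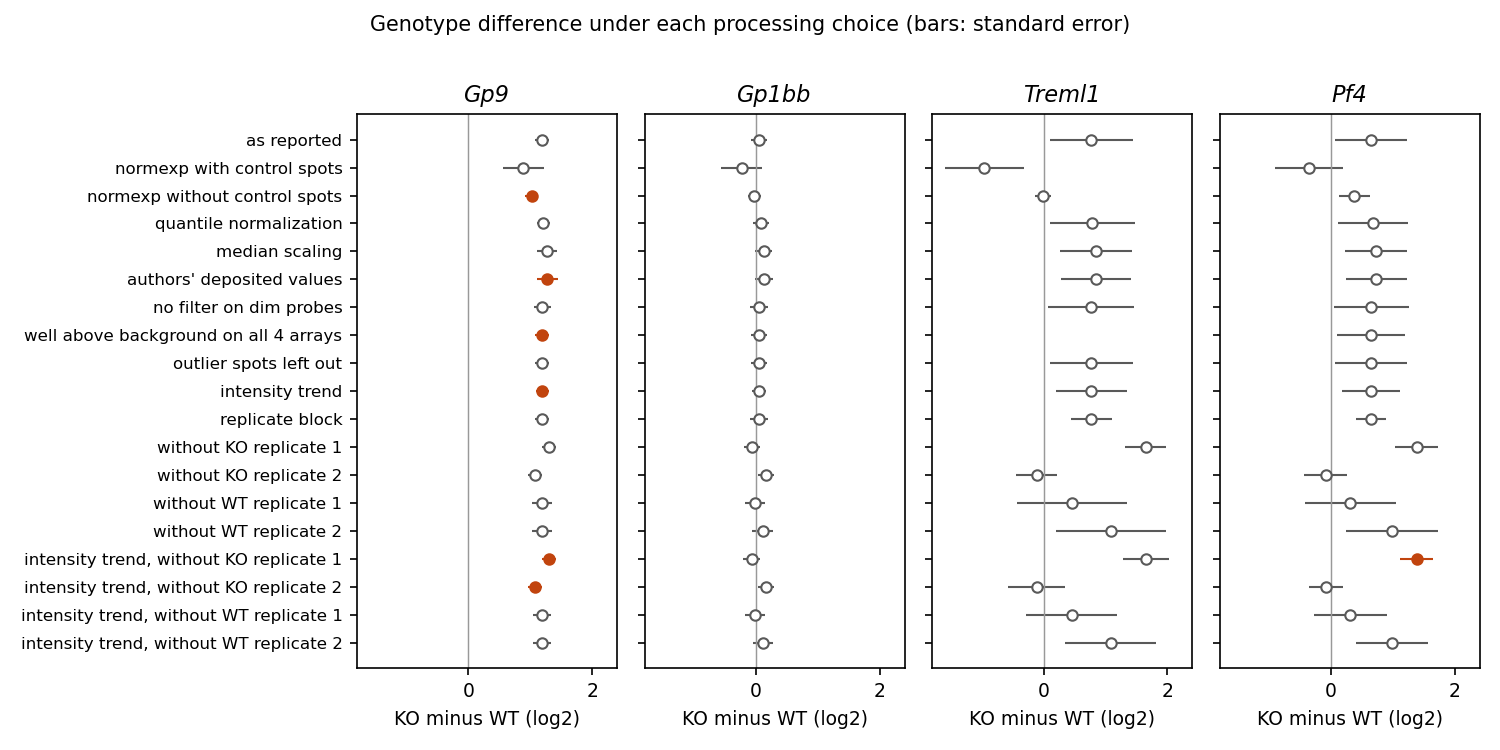
Log2 difference, KO minus WT (x axis, bars: SE), of the kept members under each processing choice (rows). Filled points have an adjusted p under 0.05 by limma. Gp9 stays between 0.89 and 1.31 throughout, whereas Treml1 and Pf4 cross 0 when KO replicate 2 is left out and with normexp on all spots.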

How the data were processed

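RNA of 2 KO and 2 WT samples was measured on 1-colour Agilent arrays. Per the file headers, Agilent Feature Extraction 10.5.1.1 quantified the scans, and the deposited intensity is its background-subtracted, detrended processed signal, not scaled between arrays. The authors' deposited table holds log2 values that track log2 processed signal (r 0.9999 or higher over 41174 probes), with column medians of 4.68 to 4.69. How they were scaled is not stated, and the table was used as an alternative only. Its Gp9 difference of 1.273 is close to the 1.271 found with median scaling, so it is not a check separate from that alternative. Here the log2 of each array's 75th percentile over non-control spots was subtracted, probes well above background on 2 of the 4 arrays were kept, and genotypes were compared per probe with limma 3.58.1 in R 4.3.3 (lmFit, eBayes, Benjamini-Hochberg over 25749 probes, no replicate block). A bound sets the value of an array well above background against, per other array, the higher of its lowest signal well above background and the probe's own. Genes of the lists are represented by their brightest kept probe, and symbols were updated through RefSeq accessions (26933 probes), current symbols (5570) or synonyms (894). The remaining 7777 kept the name in the files. The fit was checked on simulated data. The members and lists were chosen with earlier results of these data known. The text names every member, the 4 genes with the smallest p of each associated list, neighbours, and the 5 genes nearest to the members' profile. Itga2b, Gata1, Vwf, Cavin2, Mecom and Klf1 were named after their values were seen. Values of some list genes are not reported here. The number of arrays limits the precision.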

Additional observations from a re-analysis of the deposited data

How the results depend on the processing

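For Gp9, alternatives that keep the scaled values or leave out 1 array could not change the sign, since both KO arrays were above both WT arrays. Those that change the values are normexp, quantile normalization, median scaling and the authors' table, with differences from 0.89 to 1.273. Over all 18 alternatives Gp9 was higher in KO, by 0.89 to 1.31 on the log2 scale. Its limma adjusted p ran from 0.00155 to 0.473 and was under 0.05 in 6 of them, among them normexp background correction without control spots (1.02), the authors' deposited values (adjusted p = 0.0473) and only probes well above background on all 4 arrays (adjusted p = 0.0479). Pf4 turned to -0.36 with normexp on all spots and to -0.0885 without KO replicate 2 (1.38 without KO replicate 1), with and without the trend. Treml1 turned to -0.96 with normexp on all spots, to -0.0106 with normexp without control spots and to -0.11 without KO replicate 2 (1.65 without KO replicate 1), with and without the trend. Gp1bb turned to -0.23 and -0.0255 with these normexp versions, to -0.0711 without KO replicate 1 (0.168 without KO replicate 2) and to -0.0145 without WT replicate 1, with and without the trend. The cause was not tested. Both normexp versions add an offset of 50 to each corrected signal, which is above the processed signal of Treml1 on every array. The -0.0106 of Treml1 had an SE of 0.13, against 0.67 as reported. The median of all kept probes was -0.31 with normexp on all spots and -0.10 with normexp without control spots, against -0.03 as reported.

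Over all probes, 0 calls became 3545 with normexp without control spots, 5 with quantile normalization, 106 with median scaling, 267 with the authors' values, 128 with probes measured on all 4 arrays and 2480 with the trend. The trend without 1 array in turn, chosen after seeing the data, called from 3 (without WT replicate 1) to 2540 (without KO replicate 2), with 18 without WT replicate 2 and 1371 without KO replicate 1. The trend called 13 list genes, and 0 to 11 without 1 array, with 10 without KO replicate 1, 11 without KO replicate 2 and 0 without either WT array. Members whose groups did not overlap were 2 of 4 with median scaling and with the authors' values, namely Gp9 and Gp1bb. Gp1bb differed there by only 0.13 (limma adjusted p = 0.642 and 0.645). The share over all probes was not counted for these settings. Without the filter such members were 2 of 8, Gp9 and Gp6, against 19% of all probes with both KO arrays higher. Same-numbered samples did not deviate together (correlation 0.0267 over kept probes). This does not show whether the numbers pair the samples, since a shared litter or day can have little effect on most probes. With the replicate block 0 probes were called, and the SE of Pf4 was 0.24 (adjusted p = 0.251) and the adjusted p of Treml1 0.285. With 2 arrays per genotype, and with Gp1ba, Gp5, Gp6 and Ppbp at background on most arrays, signal over background limits what could be tested.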

Other observations

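Myl9, the regulatory light chain of smooth muscle and platelet myosin, is in none of the lists and was noticed in the ranking by the excess on KO replicate 2, where it stood at 15, between Treml1 and Pf4. Its processed signal was 19.97 and 57.4 in KO, against 20.6 and 19.6 in WT, so 1 of the 4 arrays was high. Gata2, a GATA factor of progenitors, mast cells and early megakaryocytes, ranked 154 with 10.8 and 18.02 in KO, against 7.89 and 9.66 in WT, and its difference of 0.36 ± 0.23 (SE) had a limma adjusted p of 0.393. Among the kept probes with higher ranks, 1 to 4 were LOC676193, AI324046, an Ensembl transcript and LOC100047222, in that order. LOC676193 had 138 and 1376 in KO, against 75.8 and 40.1 in WT. AI324046 had 235 and 3047 in KO, against 323 and 293 in WT. Gabbr2, a GABA receptor gene, ranked 5 with 14.0 and 76.5 in KO, against 9.51 and 22.1 in WT. Grn, which encodes the growth factor precursor progranulin, ranked 6 with 2918 and 8604 in KO, against 1714 and 1989 in WT.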
